A study of Homo sapiens with 4 samples.

Results

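A set of 502 accessible regions stood among the highest-ranked ATAC-seq peaks of both ACSS2i libraries of 786-O cells and of neither DMSO library. They made up 2.15% of the 23303 regions obtained by merging the 4 ranked lists. Peaks were ranked within each library by −log10 q, the peak caller's significance of a peak's excess over its local background. Each list was then cut to as many of its strongest peaks as the shortest list held, and peaks that overlapped by 1 bp or more between libraries were merged. The regions were chosen by their −log10 q ranks in all 4 libraries. Their better rank with ACSS2i, counted in places from the top, is therefore described here with no test. They are called ACSS2i-ranked regions below. The reverse class, in both DMSO cut lists and in neither ACSS2i one, held 835 regions (3.58%). Another 10043 regions were in all 4 cut lists, and 11923 had some other combination of lists.

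ATAC-seq maps open chromatin by inserting sequencing adapters with the Tn5 transposase. The cells were 786-O, an established line of clear cell renal cell carcinoma without functional VHL, and all libraries come from this 1 line. Cells received 5 µM ACSS2i, the compound the labels name for its target ACSS2, or the DMSO vehicle, for 24 h, with 2 libraries per group, to look for changes in open chromatin. Nothing in the labels says that the 2 libraries of a group came from separate cultures, so any spread between them may be technical.

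ACSS2 makes acetyl-CoA from acetate, and acetyl-CoA is the donor that histone acetyltransferases use to acetylate histone tails. Acetylated histones accompany open chromatin at promoters, where transcription starts, and at enhancers, which lie inside or between genes and act at a distance. In VHL-deficient renal carcinoma cells HIF-2α, the hypoxia factor whose gene is EPAS1, is not degraded and drives genes of blood vessel growth, glucose uptake and glycolysis.

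The promoter sequences below are chosen examples of gene starts that the regions reached, and they do not stand for a whole class. ADM, PKM, DHCR7, PER1 and RACK1 lay at 5 of the strongest ACSS2i-ranked regions at gene ends, and TMEM185B at a region of the reverse class. Each sequence runs 5′ to 3′ over 250 bases before and 50 bases after the RefSeq start on GRCh38.p14, and capitals mark motif matches on either strand.

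ADM (chr11:10304823-10305122, plus strand): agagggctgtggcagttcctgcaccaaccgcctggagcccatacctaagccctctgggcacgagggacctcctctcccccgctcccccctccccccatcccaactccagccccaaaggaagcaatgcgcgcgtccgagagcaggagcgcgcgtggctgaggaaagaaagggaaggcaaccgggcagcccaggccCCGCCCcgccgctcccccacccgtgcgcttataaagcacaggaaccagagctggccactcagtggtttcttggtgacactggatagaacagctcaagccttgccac
PKM (chr15:72231141-72231440, minus strand): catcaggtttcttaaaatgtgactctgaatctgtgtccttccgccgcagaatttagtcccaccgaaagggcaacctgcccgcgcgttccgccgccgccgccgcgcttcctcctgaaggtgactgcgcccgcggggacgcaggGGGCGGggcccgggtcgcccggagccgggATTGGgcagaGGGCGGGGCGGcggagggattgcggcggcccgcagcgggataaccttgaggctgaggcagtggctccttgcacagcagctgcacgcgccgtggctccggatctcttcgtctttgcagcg
DHCR7 (chr11:71448344-71448643, minus strand): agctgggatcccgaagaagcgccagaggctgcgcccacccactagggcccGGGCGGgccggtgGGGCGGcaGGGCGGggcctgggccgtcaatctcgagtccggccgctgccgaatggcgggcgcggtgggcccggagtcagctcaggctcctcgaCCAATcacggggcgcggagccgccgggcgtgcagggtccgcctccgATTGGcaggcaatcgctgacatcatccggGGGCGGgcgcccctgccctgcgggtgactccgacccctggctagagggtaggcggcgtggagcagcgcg
PER1 (chr17:8152355-8152654, minus strand): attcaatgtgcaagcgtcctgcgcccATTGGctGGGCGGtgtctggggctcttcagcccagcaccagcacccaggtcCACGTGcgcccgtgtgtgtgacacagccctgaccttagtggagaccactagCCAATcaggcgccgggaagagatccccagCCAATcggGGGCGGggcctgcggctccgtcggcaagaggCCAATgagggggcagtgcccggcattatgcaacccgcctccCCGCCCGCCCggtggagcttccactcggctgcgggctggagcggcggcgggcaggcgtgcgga
RACK1 (chr5:181243857-181244156, minus strand): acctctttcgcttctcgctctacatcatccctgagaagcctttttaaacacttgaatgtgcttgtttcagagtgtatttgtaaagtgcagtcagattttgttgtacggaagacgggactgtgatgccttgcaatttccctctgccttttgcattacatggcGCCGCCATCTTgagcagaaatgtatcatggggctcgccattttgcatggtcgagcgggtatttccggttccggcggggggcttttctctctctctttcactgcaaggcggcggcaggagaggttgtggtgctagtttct
TMEM185B (chr2:120223351-120223650, minus strand): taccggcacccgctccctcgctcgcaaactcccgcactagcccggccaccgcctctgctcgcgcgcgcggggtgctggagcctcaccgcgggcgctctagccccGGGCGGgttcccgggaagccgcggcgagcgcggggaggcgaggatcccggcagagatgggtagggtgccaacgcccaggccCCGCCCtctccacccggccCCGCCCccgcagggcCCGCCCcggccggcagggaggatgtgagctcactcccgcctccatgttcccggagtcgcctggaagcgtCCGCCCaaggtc

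The region covered 244 of the 300 bases at ADM, 215 at PER1 and 207 at RACK1, and all 300 at PKM, DHCR7 and TMEM185B. The search used the SP1-type box GGGCGG, the NFY box CCAAT, the HRE core ACGTG, the ETS site CCGGAAG, the TEAD site GGAATG, the E-box CACGTG (which contains the HRE core), the AP-1 site TGANTCA, the CRE TGACGTCA, the NRF1 site and the YY1 site. The SP1-type box was present at ADM, PKM, DHCR7, PER1 and TMEM185B, and it was present in 56.3% of all 22199 promoter windows. NFY boxes were found at PKM, DHCR7 and PER1, against 34.7% of all windows. PER1 also held an E-box, found in 8.34% of windows, and with it an HRE core, found in 23.0%. The RACK1 window held a YY1 site, found in 1.18% of windows. None of these 6 windows held the ETS, TEAD, AP-1, CRE or NRF1 letters, which occurred in 12.8%, 12.2%, 6.15%, 2.26% and 1.5% of all windows. A window was at hand for 79 of the 105 genes outside chromosome 8 that had an end near an ACSS2i-ranked region (75.2%). Over all coding genes outside chromosome 8 the share was 82.0%. Motif and GC shares were counted by class, but with part of the genes missing they are not compared here.

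The 4 peak lists differed in length and strength. The list of ACSS2i replicate 1 was the shortest and set the cut, and that of ACSS2i replicate 2 held 22044 peaks, against 34696 and 50294 in DMSO replicates 1 and 2. The cut kept 100% and 74.4% of the ACSS2i lists, against 47.3% and 32.6% of the DMSO lists. The weakest peak kept had a −log10 q of 2.00 and 4.20 in the ACSS2i lists, against 10.7 and 27.9 in the DMSO lists. Ranks from lists of such different length do not by themselves show a change in accessibility. A peak could therefore miss a DMSO cut list and still be far more significant than one inside an ACSS2i cut list. Read totals were not used here. The genome background, solved from fold and −log10 p, stood at 2.32 and 3.16 fragments in ACSS2i replicates 1 and 2, against 2.06 and 1.75 in DMSO replicates 1 and 2.

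Most of the 502 regions had a peak in DMSO-treated cells as well, about as often as merged regions did in general. In the full lists, 474 had a peak in both DMSO libraries (94.4%, against 94.5% of all 23303 regions), 21 in 1 of them and 7 in neither. The median rank of the regions was 11984 and 12378 in ACSS2i replicates 1 and 2, against 20427 and 21246 among the 475 and 494 called in DMSO replicates 1 and 2. The better of the DMSO ranks was 20000 or lower for 311 regions, above 20000 and up to 25000 for 146, and above 25000 for 38. The regions therefore lay mostly in the middle of the DMSO lists. As a percentile of each full list, with uncalled regions placed at the bottom, most regions stood lower with ACSS2i. The median of the ACSS2i mean minus the DMSO mean was −9.00 points, and 152 of the 502 rose. By percentile, 27 of the 474 regions called in both DMSO libraries (5.70%) were higher in both ACSS2i libraries and 126 (26.6%) were lower. Of the 10043 regions in all 4 cut lists, 156 (1.55%) were higher and 5929 (59.0%) were lower, so a fall in percentile was more common there. The same rank also gives a higher percentile in the longer DMSO lists, so a lower percentile does not by itself show a loss. Among the 495 regions with a DMSO peak, the gap between the groups' ranks had a median of 5934 places and ran from 434 to 38326. It exceeded the gap within both groups in 265 of the 474 regions called in both DMSO libraries, where the larger within-group gap had a median of 5010 places. On the ACSS2i side, 115 regions had a rank within 1000 places of the cut in at least 1 library.

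**Figure D1:**
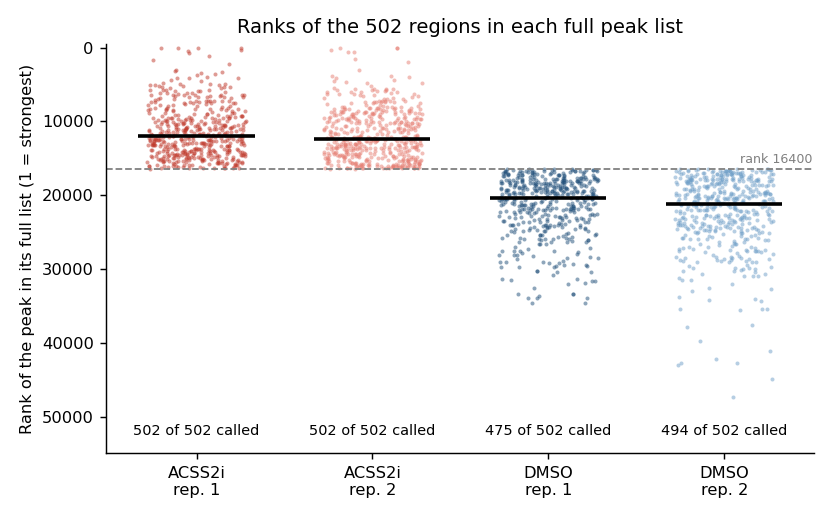
Each point is 1 of the 502 regions, placed by the rank of its peak in the full list of that library (vertical axis, rank 1 at the top), with the median as a black bar and the cut as a dashed line. The 2 ACSS2i libraries lie above the line with medians of 11984 and 12378, and the 475 and 494 regions called in the DMSO libraries lie below it, mostly between the cut and rank 25000.

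At the cut itself, neighbours on both sides had nearly the same values. Just inside were regions at the ends of RASGEF1B, a Ras-family exchange factor, and CDH6, a cadherin of kidney epithelium, whose best DMSO ranks were 16415 and 16420. RASGEF1B had 11 and 19 fragments at the summit in ACSS2i replicates 1 and 2, against 24 and 47 in DMSO replicates 1 and 2. Just outside were a region 16669 bp from an end of C18orf63, with a best DMSO rank of 16393, and one inside ACTN1, with 16385. The C18orf63 region had 15 and 22 fragments with ACSS2i, against 24 and 38 with DMSO. Both pairs thus had fewer summit fragments in each ACSS2i library than in either DMSO library.

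Relative to genome background, signal went the other way from rank in nearly all regions called in every library. Summit signal, in fragments as a multiple of the library's own genome background, had a median over the regions of 6.91 and 7.27 in ACSS2i replicates 1 and 2, against 11.2 and 24.6 in DMSO replicates 1 and 2. Of the 474 regions called in all 4 libraries, 448 had less summit signal in both ACSS2i libraries than in either DMSO library. The reverse held for 4. In summit fragments, not divided by background, 226 of the 474 (47.7%) were lower in both ACSS2i libraries, 4 were higher and 244 overlapped. By the same count, 9090 of the 10043 regions in all 4 cut lists (90.5%) were lower and 2 were higher. On the authors' fold over local background, 234 of the 474 (49.4%) were lower and 16 were higher in both ACSS2i libraries, and the groups overlapped in the others. In the regions of all 4 cut lists, 8581 (85.4%) were lower in fold and 21 were higher. Lower values were thus less common here than in the regions shared by all lists. The median fold was 4.01 and 4.08 with ACSS2i, against 4.46 and 6.45 with DMSO. Peaks were narrower too, with a median width of 306 and 488 bp with ACSS2i against 693 and 897.5 bp with DMSO. In peak signal, then, the regions as a set did not go up with ACSS2i.

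The deficit was smaller than in regions common to all libraries. The mean ACSS2i signal was 0.391 of the mean DMSO signal in the median region (quartiles 0.347 and 0.441), while in the 10043 regions of all 4 cut lists it was 0.287 (0.257 and 0.319), where 10033 were lower in both ACSS2i libraries. The same ratio for fold over local background was 0.762 in the ACSS2i-ranked regions and 0.606 in the regions of all 4 lists. The rule selects for this difference, so nothing is tested here. The reverse class had a median signal of 13.6 and 30.3 in DMSO replicates 1 and 2, a little above the 11.2 and 24.6 of the ACSS2i-ranked regions. Its median DMSO fold of 6.65 and 10.4 stood farther above their 4.46 and 6.45. The local background at the summit was lower in the reverse class, where it was 1.67 and 2.47 times the DMSO genome background, against 2.01 and 3.31 times at the ACSS2i-ranked regions. None of the reverse regions had a peak in ACSS2i replicate 1, whose list the cut left whole, and 289 of the 835 (34.6%) had one in ACSS2i replicate 2.

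**Figure D2:**
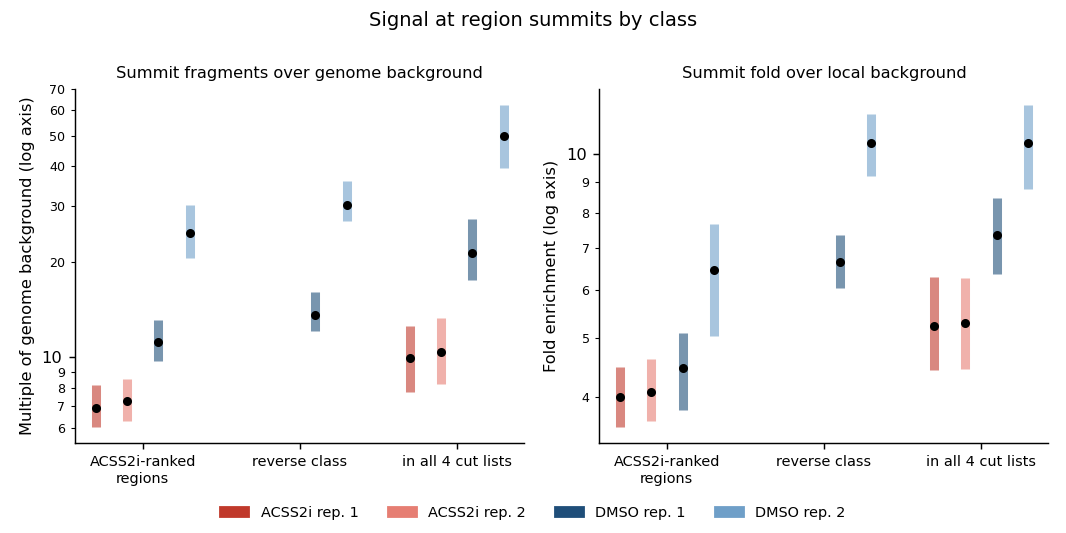
Black points are medians and coloured bars run between the quartiles over regions, on log axes, for summit fragments over genome background (left) and summit fold over local background (right). Each class has the 2 ACSS2i libraries on the left and the 2 DMSO libraries on the right, and the reverse class is drawn only where all its regions were called. In the ACSS2i-ranked regions the median signal is 6.91 and 7.27 with ACSS2i and 11.2 and 24.6 with DMSO.

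Only 14 of the 502 regions had more summit signal in both ACSS2i libraries than in any DMSO peak, among 22 such regions of the 23303 in all. All 14 lay far from gene ends, between 52.9 and 2292 kb from the nearest end of a protein-coding gene, on 8 chromosomes, and were narrow, 179 to 536 bp after merging. Of these, 7 had no DMSO peak, 3 had a peak in 1 DMSO library and 4 in both. A DMSO library without a peak was counted as having no signal, though its signal there was not measured. Only the last 4 were thus compared with both DMSO libraries. The strongest, at chr6:61322949-61323134 on hg38, was the peak of rank 3 in both ACSS2i lists, with 198 and 171 fragments at its summit, 32.6 and 30.2 times its local background, and no peak in either DMSO list. Next came chr1:143214651-143214872, with ranks 8 and 13 and 72 and 67 fragments with ACSS2i and no DMSO peak. A further region of chromosome 1, chr1:123755564-123755820, had 36 and 42 fragments with ACSS2i and no DMSO peak. These 3 regions were thus strong peaks in each ACSS2i library and uncalled in each DMSO library.

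Others of the 14 were called in DMSO cells at a lower level. At chr16:46401382-46401633 the summit held 117 and 97 fragments in ACSS2i replicates 1 and 2, against 52 and 37 in DMSO replicates 1 and 2, and the ranks were 28 and 376 against 17838 and 27456. A neighbour at chr16:46399266-46399563 held 100 and 75 fragments with ACSS2i, against 48 and 30 with DMSO. The region chr10:38527244-38527767 held 45 and 56 fragments with ACSS2i, against 24 and 18 with DMSO. The groups did not overlap at any of these 3 regions, which follows from how the 14 were picked. At chr17:26881277-26881537 there were 55 and 49 fragments with ACSS2i, against 26 in DMSO replicate 2 and no peak in DMSO replicate 1. Fold over local background was less clear-cut: at chr16:46401382-46401633 it was 5.48 and 4.71 with ACSS2i, against 3.08 and 5.15 with DMSO, so the groups overlapped. The remaining members of the 14 were chr21:8420428-8420606, with 31 and 54 fragments with ACSS2i and no DMSO peak, chr21:10431980-10432416, chr16:34574066-34574461, chr5:34191273-34191808 and 3 on chromosome Y.

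Several of the 14 lie beside centromeres or on the short arm of chromosome 21, stretches made largely of repeats, though no repeat annotation was used here. The lists were deposited after a filter that the sources used here do not describe, and their peak numbering lacks 16 and 15 numbers in ACSS2i replicates 1 and 2, against 11 and 12 in DMSO replicates 1 and 2. For 2 of the 14, chr16:34574066-34574461 in both DMSO lists and chr21:8420428-8420606 in DMSO replicate 1, the missing DMSO peak falls inside such a gap, so a removed peak there cannot be told apart from an uncalled one. The other 14 of the 17 missing DMSO entries lie where the numbering is complete. How uniquely reads could be placed in these regions was not tested.

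**Figure D3:**
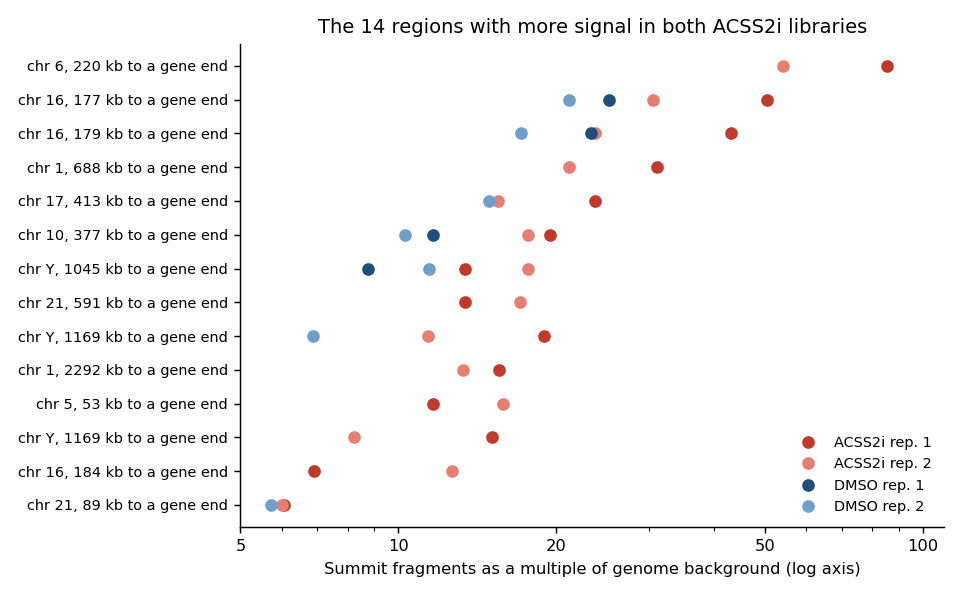
Each row is 1 of the 14 regions with more signal in both ACSS2i libraries, named by chromosome and distance to the nearest protein-coding gene end, and each point is the summit signal of 1 library as a multiple of genome background on a log axis. A DMSO library without a peak has no point and was counted as having no signal. The top row, on chromosome 6, reaches 85.5 and 54.1 in the ACSS2i libraries and has no DMSO point.

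The ACSS2i-ranked regions lay away from gene ends more often than the other classes did. Of the 502, 103 (20.5%, exact Clopper-Pearson interval 17.1% to 24.3%, counting error only) were within 1000 bp of an end of a protein-coding gene, against 31.7% of the reverse class, 41.4% of the regions in all 4 cut lists and 33.8% of all 23303 regions. Another 47.6% lay inside a gene span, against 37.7%, 32.2% and 36.2% in the same order, and 31.9% lay between gene spans, against 30.5%, 26.4% and 30.1%. The median distance to a gene end was 14112.5 bp, against 11529 bp in the reverse class and 5745 bp in the regions of all 4 lists. There were 90 regions (17.9%) more than 100 kb from any gene end, against 13.9% of the reverse class and 10.5% of the regions in all 4 lists. The merged regions were short, with a median of 567 bp, against 736 bp in the reverse class and 1149 bp in the regions of all 4 lists. Neighbouring regions are not independent samples, so these shares were not tested.

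Under each of the other settings tried, the share near a gene end stayed below that of the regions in all 4 lists and below that of all regions. The order against the reverse class turned round in 2 of them. With peaks ranked by fold enrichment the share was 29.2% in the ACSS2i-ranked regions and 25.3% in the reverse class, and without DMSO replicate 2 it was 32.1% and 21.2%. Over whole cut lists, 35.2% and 35.9% of the peaks of ACSS2i replicates 1 and 2 were near a gene end, against 35.6% and 40.3% in DMSO replicates 1 and 2. The means were 35.5% ± 0.504 and 38.0% ± 3.28 (SD, n = 2 each), a difference of −2.45 percentage points that did not pass a two-sided exact permutation test (p = 0.667), in which 2 against 2 libraries allow no p below 0.33. DMSO replicate 2 had most of that difference, which was −0.131 points without it.

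**Figure D4:**
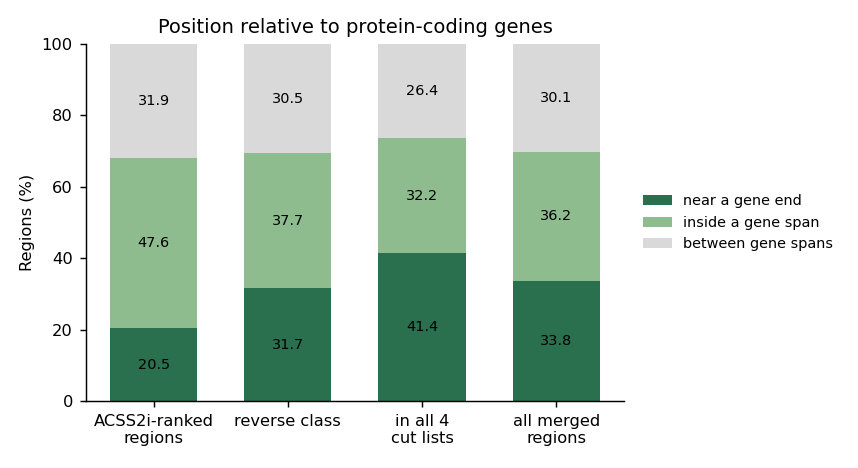
Stacked bars give the percentage of regions near a protein-coding gene end (within 1000 bp), inside a gene span or between spans, for the ACSS2i-ranked regions, the reverse class, the regions of all 4 cut lists and all merged regions. The dark part is 20.5% in the ACSS2i-ranked regions and 41.4% in the regions of all 4 cut lists.

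A region shared by all 4 cut lists lay within 5 kb of 88 of the 502 regions (17.5%), against 28 of the reverse class (3.35%), 6.63% of the shared regions themselves and 7.55% of all regions. Another ACSS2i-ranked region lay within 5 kb of 24 of them (4.78%). More ACSS2i-ranked than reverse regions thus had a peak common to all libraries nearby, and the order was the same under every other setting but 1. With peaks ranked by the number of summit fragments, an alternative chosen after seeing the data, it turned round, at 2.90% in the ACSS2i-ranked regions and 24.6% in the reverse class. Some regions also shared a single wider DMSO peak: 2 regions shared 1 in DMSO replicate 1, and 6 regions shared 1 with another in DMSO replicate 2. By chromosome, the ACSS2i-ranked share was highest on chromosome Y, at 3 of 40 regions (7.5%), against 2.15% over all regions. The reverse class held 2 of those 40 (5.0%), and the 3 were all among the 14 regions with more ACSS2i signal. Next came 3.44% on chromosome 14, 3.37% on chromosome 15 and 3.17% on chromosome 6. The lowest shares were 1.49% on chromosome 7 and 1.52% on chromosomes 2 and 19.

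At gene ends, the regions touched 110 of the 9081 protein-coding genes with an end near any region (1.21%), while the reverse class touched 311 (3.42%) and no gene had both. Of the 110 genes, 14 also had an end near a region of all 4 lists and 83 had no other region. Either end of a gene was counted, so a region may lie at its 3′ end, and 11 regions lay near ends of 2 or more genes. The genes included enzymes of sterol and sugar metabolism, early response genes and genes of chromatin and translation, described here by role.

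Among metabolic genes, PKM encodes the pyruvate kinase of glycolysis and DHCR7 an enzyme of the last steps of cholesterol synthesis. The region at PKM, chr15:72230400-72231805, covers the promoter printed above. It had ranks 6930 and 12063 in ACSS2i replicates 1 and 2, against 28607 and 22976 in DMSO replicates 1 and 2. Its summit held 28 and 33 fragments with ACSS2i, against 37 and 80 with DMSO, so signal was lower in both ACSS2i libraries although the rank was better. DHCR7 had ranks 9089 and 10920 with ACSS2i, against no peak in DMSO replicate 1 and rank 21708 in DMSO replicate 2. SLC16A7, which encodes a carrier of lactate and pyruvate, had ranks 7087 and 11439 with ACSS2i, against 18019 and 22173 with DMSO.

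ADM encodes adrenomedullin, a vessel-dilating peptide and a target of hypoxia factors. Its region, chr11:10303935-10305066, reaches the promoters of ADM and of its neighbour SBF2 and had ranks 5815 and 8692 with ACSS2i, against 19916 and 21477 with DMSO. The summit held 26 and 33 fragments with ACSS2i, against 40 and 81 with DMSO. The local background there was 2.11 and 2.36 times the genome background with ACSS2i, against 5.53 and 12.0 times with DMSO, and the fold was 4.58 and 4.01 with ACSS2i, against 3.31 and 3.73 with DMSO. The ADM region was thus better ranked and higher in fold in both ACSS2i libraries, and lower in fragments and in surrounding background. Fold was also higher in both ACSS2i libraries at the region near the ends of RABL6 and AJM1, where it was 3.95 and 4.08 with ACSS2i, against 3.51 and 3.61 with DMSO.

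AP-1 and immediate early genes code for transcription factors and feedback phosphatases that respond to growth signals, and 3 of the 20 with an end near any region were touched, against 1.21% of all such genes. KLF6, a zinc finger factor, had ranks 10074 and 7503 with ACSS2i, against 28006 and 25538 with DMSO. FOSL1, an AP-1 subunit, had 2 regions over 1 wider DMSO peak, of which the stronger had ranks 3130 and 15079 with ACSS2i, against 21228 and 25080 with DMSO, so the ACSS2i libraries lay far apart. DUSP5, a phosphatase of ERK kinases, had ranks 16399 and 15802 with ACSS2i, next to the cut, against 24101 and 16833 with DMSO. The 3 genes thus ranged from deep inside the ACSS2i lists to their edge. PER1, a repressor of the circadian clock, had ranks 4882 and 10233 with ACSS2i, against 17549 and 18172 with DMSO, and 25 and 32 fragments with ACSS2i, against 38 and 78 with DMSO.

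Genes of chromatin and of the translation and protein machinery were also present. BRD2, which encodes an acetyl-lysine reader, had 2 regions over 1 DMSO replicate 2 peak. The region at its end had ranks 11985 and 11246 with ACSS2i, against 22700 and 29858 with DMSO. EED, a subunit of the polycomb complex that methylates histone H3, had ranks 14896 and 9345 with ACSS2i, against 17740 and 24079 with DMSO. The EED summit stood at 5.18 and 6.64 times genome background with ACSS2i, against 10.2 and 17.7 times with DMSO. By that measure its signal was lower in both ACSS2i libraries. In fragments it held 12 and 21 with ACSS2i, against 21 and 31 with DMSO, so the groups met at 21. RACK1, a scaffold of the small ribosomal subunit, had ranks 7271 and 12921 with ACSS2i, against 24179 and 25495 with DMSO. MAGOH, of the exon junction complex, had ranks 8821 and 11765 with ACSS2i, against 18279 and 22763 with DMSO.

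The rest of the 20 strongest gene-end regions had varied roles. TPM1, a tropomyosin that binds actin, had ranks 5935 and 10615 with ACSS2i, against 30225 and 23977 with DMSO. AHNAK, a giant scaffold protein, had ranks 3543 and 11078 with ACSS2i, against 24353 and 17000 with DMSO. TMEM259, which also overlaps the small nuclear RNA gene RNU6-2, came first by the lower ACSS2i percentile, with ranks 6370 and 8597 with ACSS2i, against 23875 and 19758 with DMSO. The others of the 20 were HEBP1, PAGR1 with MVP, SYT8, PSD3, B4GAT1 over a serine tRNA gene, IPO4 with TM9SF1, SAMD4A and ATXN1. The strongest gene-end regions of the reverse class were at SRRD, PIR, ASMTL, TMEM185B and PRMT9. TMEM185B had no ACSS2i peak and ranks 4593 and 6606 in the DMSO lists, and SRRD had none and ranks 3052 and 3247.

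**Figure D5:**
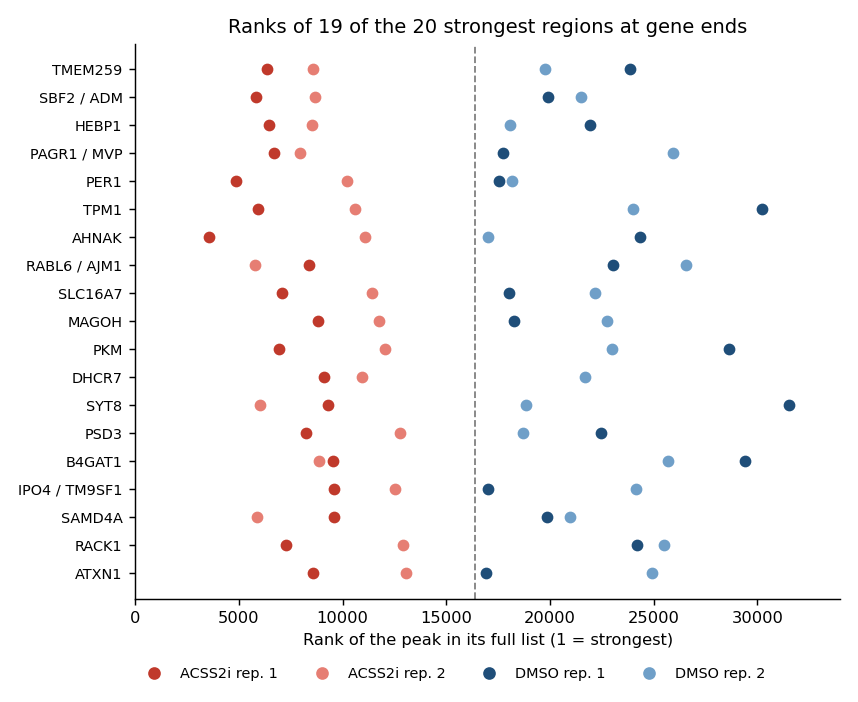
Each row is 1 of 19 of the 20 strongest ACSS2i-ranked regions near a protein-coding gene end, and each point is the rank of its peak in the full list of 1 library. The ACSS2i points lie on the better-ranked side of the cut (dashed line) and the DMSO points on the other, and DHCR7 lacks a point for DMSO replicate 1.

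Across 20 lists of pathways and cell type markers, 11 of the 303 genes with an end near any region were touched (3.63%), against 1.21% of all such genes. The reverse class touched 3 of them (0.99%), EPAS1, RHOT2 and GPI. The lists were chosen with earlier results of these data known, and the counts are small. Beside the 3 early response genes they included DHCR7 of the sterol and fatty acid list, and 1 each of 23 HIF targets (ADM), 16 glycolysis genes (PKM), 21 genes of acetyl-CoA supply and histone acetylation (BRD2), 22 chromatin remodelling genes (EED) and 7 kidney tubule genes (CDH6). There were 12 lists with none. Of the cell type markers, 7 of 17 kidney tubule genes had an end near any region, no more than among coding genes in general (9081 of 20037), so this count alone does not check the cell type. Fewer markers of other types had one, with 2 of 16 immune markers, 2 of 15 endothelial or stromal markers and 4 of 18 markers of neurons or muscle. None of these markers of other cell types had an end near an ACSS2i-ranked region. With so few of them near any region and a share of 1.21% over all such genes, that says nothing about cell type. The kidney genes CDH16, KRT8 and KRT18 had an end near a region of all 4 lists. Among gene families, the ACSS2i-ranked regions touched 4 of 286 ZNF genes, 2 of 20 HOX genes (HOXA10 and HOXC10), 1 of 62 cytosolic ribosomal protein genes (RPL4), 1 of 55 mitochondrial ribosomal protein genes (MRPL1), 1 of 35 proteasome genes (PSMD12), 1 of 39 replication-dependent histone genes (H4C5), none of 31 NDUF genes and none of 5 keratin genes. The share was 1.40% for ZNF genes and 10.0% for HOX genes, against 1.21% of all such genes. These family counts are small and were not tested.

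Counting all 502 regions, those at gene ends included, 321 gene spans held at least 1 ACSS2i-ranked region, 18 held 2 or more, and PALLD, which encodes the actin-associated protein palladin, held 4. The PALLD region at chr4:168528119-168528606 had a summit signal of 5.61 and 6.95 times genome background with ACSS2i, against 9.72 and 21.7 times with DMSO. That at chr4:168618671-168619354 had 5.61 and 7.59 times with ACSS2i, against no peak in DMSO replicate 1 and 14.9 times in DMSO replicate 2. By this measure, signal at both was below that of each called DMSO library. In fragments, the first held 13 and 22 with ACSS2i, against 20 and 38 with DMSO, so the groups overlapped. The second held 13 and 24 with ACSS2i, against 26 in DMSO replicate 2. The widest region, at 3098 bp, lay in the long noncoding RNA gene NEAT1, the scaffold of nuclear paraspeckles, at chr11:65426731-65429828. NEAT1 had ranks 6647 and 9029 with ACSS2i, against 17756 and 30206 with DMSO. Its summit held 23 and 28 fragments with ACSS2i, against 39 and 59 with DMSO. Its local background was 1.80 and 1.77 times the genome background with ACSS2i, against 4.75 and 10.2 times with DMSO. As at ADM, the fold at NEAT1 was higher in both ACSS2i libraries, at 4.64 and 4.39 with ACSS2i, against 3.71 and 3.19 with DMSO.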

How the data were processed

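Peak lists of 4 ATAC-seq libraries (2 ACSS2i, 2 DMSO) were used, grouped by the treatment in the labels. The submitters' processing notes name Trimmomatic 0.38, Bowtie2, SAMtools 1.9, Picard 2.18.26, MACS2 2.1.2 and the build hg38. Peaks were called per library. Caller options, any Tn5 shift and the filter applied are not stated in those sources. Per the deposited lists, the fold column is a ratio, the summit's enrichment over its local background. The authors' −log10 p and −log10 q columns hold p-values and q-values from the caller. The score column and the summit offset deposited by the authors were only checked. Summits sharing an interval counted as 1 peak with its strongest values. Summit fragments were solved from fold and −log10 p (tolerance 0.001, all summits), and the lowest local background was taken as the genome background. Gene spans came from RefSeq GRCh38.p14, without exons, and no genome sequence was used, so region sequences are not printed. The members and gene lists were chosen with earlier results of these data known. Named regions are the 20 strongest near gene ends (by the lower ACSS2i percentile), the 8 strongest elsewhere, the 8 with the largest percentile rise, all listed genes, 5 reverse regions and those beside the cut, and some of them are not reported here. Settings tried were other cuts, rankings, overlaps, thresholds and gene windows and leaving out each library. The classing was tested on simulated lists. Python 3.11.15, pandas 2.3.3 and scipy 1.17.1 were used.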

Additional observations from a re-analysis of the deposited data

How the results depend on the processing

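Of the settings that keep all 4 libraries, only ranking by fold moved the number of ACSS2i-ranked regions by over 1.5 times. Cutting the lists to 12000 or 8000 gave 497 or 400 regions, of which 124 and 23 were among the 502, and the share near a gene end was 25.8% and 28.8%. The reverse class had 455 regions at a cut of 8000. Ranking by fold gave 1259 regions, which held 321 of the 502, with 29.2% near a gene end, 421 genes, 1227 called in both DMSO libraries and 1457 reverse regions. Leaving out 1 library at a time gave 1247 to 2189 regions, 1668 to 2224 reverse regions, 338 to 450 genes, 1205 to 1625 regions called in the DMSO libraries kept, and 16.7% to 32.1% near a gene end. These larger counts follow from a rule that asks for 1 list fewer. Requiring overlap of 0.5 of the shorter peak gave 477 regions, a −log10 q of at least 3 gave 411, and ranking by summit fragments, added after seeing the data, gave 414, of which 476, 411 and 217 were among the 502. Of the 14 regions with more ACSS2i signal, 9 to 14 were kept under these settings. The library difference in the share near a gene end was −4.77 to −0.131 points without 1 library at a time and −3.59 points with a window of 500 bp. With the libraries paired by replicate number as a replicate block, added after seeing the data, the difference stayed −2.45 points (exact sign-flip p = 0.5, the smallest that 2 pairs allow). The labels do not say what a replicate number stands for, and the deviations of same-numbered libraries correlated at r = 0.196 over the 10043 regions of all 4 lists. Read totals were not used, and no peaks lie beyond the cut in ACSS2i replicate 1, so weaker regions could not be looked up there.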

Other observations

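Some ACSS2i-ranked regions away from gene ends had a listed gene as their nearest protein-coding gene. They were picked after their values were seen, and nearness does not say which gene a region acts on. They included regions nearest to SLC2A1, the glucose carrier GLUT1, and to VEGFA, the vessel growth factor, both targets of hypoxia factors. The SLC2A1 region, at chr1:42936554-42937487, had 33 and 44 fragments with ACSS2i, against 46 and 74 with DMSO. Each ACSS2i fragment value was thus below both DMSO values. Its fold over local background went the other way, at 3.89 and 3.28 with ACSS2i, against 2.92 and 2.82 with DMSO. The VEGFA region lay 130643 bp from a gene end. Its summit signal was 5.61 and 6.64 times genome background with ACSS2i, against 9.72 and 16.0 times with DMSO. In fragments it held 13 and 21 with ACSS2i, against 20 and 28 with DMSO, so the groups overlapped. A region nearest to SNAI1, a repressor of epithelial genes, had 28 and 44 fragments with ACSS2i, against 42 and 86 with DMSO. A region nearest to LIF, a cytokine, had 26 and 35 fragments with ACSS2i, against 52 and 68 with DMSO. Regions were also nearest to the early response genes FOSB, KLF4, KLF6 and DUSP5 and to IGFBP3 and CDK6 (2 regions each).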
